A study of Mus musculus with 7 samples.

Results

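The genes within 10 Mb of Rreb1 on mouse chromosome 13 are the genes most likely to travel with the nm3888 mutation when mice carrying it are bred. Rreb1 spans 37778400 to 37952005 of the genome build mm10, and a gene was taken as a member when it lay between 27778400 and 47952005 and had 10 or more counts in at least 3 of the 7 libraries. Tubb2a, Tubb2b, Elovl2, Fars2 and Kif13a lie in this window and were left out. This gave 104 members, out of 406 genes annotated in the window, 18086 genes of the whole series that met the same count minimum and 55401 genes in the files. At the edge of the count minimum, the third-highest library held 10 counts for Gm8513 and 11 for Ly86, which are members, and 9 for Gm35110 and 8 for Eci3, which are not. By annotation 76 members are protein-coding, 14 are lincRNAs (long intergenic noncoding RNAs) and 7 are processed pseudogenes, and the other 7 are antisense and other RNAs.

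Ribosome-bound RNA of Purkinje cells was sequenced from 4 nm3888-/- mice and 3 wild-type mice, 3 weeks old, with 1 cerebellum per library. All mice carried an Rpl22 fl/+ allele and PCP2-Cre, so that an HA-tagged copy of the ribosomal protein RPL22 was made in Purkinje cells and their ribosomes could be pulled down with an antibody to HA (RiboTag). The nm3888-/- mice are homozygous for a spontaneous insertion of a retrotransposon in an intron of Rreb1, which disrupts the nervous system transcript Rreb1 V7. By the paper's methods the mutation arose on the NOD/ShiLtJ strain. Its results name an Il10 mutant NOD line, which was then backcrossed to NOD mice. The mutation was also moved to C57BL/6J by repeated backcrossing, and the strain background of the sequenced mice is not stated. The libraries form a first series (2 nm3888-/- and 2 wild-type mice, all female) and a second series (2 male nm3888-/- mice and 1 female wild-type mouse). In the second series sex and genotype therefore cannot be told apart. Genotypes are those of the labels. Counts of Rreb1 itself were not lower in the libraries labelled nm3888-/- (values with the mapped interval below), so the targeted gene does not back the labels, and every direction given rests on them. Libraries held between 18023017 and 107937386 counts, of which members took 0.264 to 0.313%.

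RREB1 is a zinc finger transcription factor that binds DNA and can either raise or lower the transcription of its targets through the cofactors it recruits. A backcross that selects for a mutation also keeps donor DNA on both sides of it, and the kept segment shortens only as crossovers fall close to the mutation. Genes in such a segment can differ between mutant and control mice because of variants of the donor strain, with no part played by the mutated gene. Which members lie on donor-strain DNA in the mutant mice was not read from these counts. A linked variant and an effect of RREB1 therefore cannot be told apart for any single gene here, and position is given as a description.

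A730081D07Rik, Ripk1 and Rnf144b were the members called most often over the fits described below, and the sequence around their starts is shown for that reason. The reference bases are from RefSeq (GRCm38.p6, the same build as mm10) and were not read from these mice. A730081D07Rik is an antisense RNA of the minus strand at chr13:41001097-41001396 (window of 300 bases), whose gene runs from 40956414 to 41001151. It begins inside Pak1ip1, which starts at 41001023 on the plus strand, and its end lies in Gcnt2, also on the plus strand. The last 50 bases, in capitals, follow the start that RefSeq gives the antisense RNA, which lies a few bases inside the gene end used for counting.
A730081D07Rik: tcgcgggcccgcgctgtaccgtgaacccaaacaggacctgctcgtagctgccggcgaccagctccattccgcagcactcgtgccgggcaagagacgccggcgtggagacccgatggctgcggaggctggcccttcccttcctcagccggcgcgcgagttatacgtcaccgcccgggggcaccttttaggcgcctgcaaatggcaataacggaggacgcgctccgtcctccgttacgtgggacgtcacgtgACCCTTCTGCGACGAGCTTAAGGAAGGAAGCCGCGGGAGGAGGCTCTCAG
Ripk1 (plus strand) has 2 starts in the table, and the 250 bases before each are given, from chr13:34002113-34002362 and chr13:34002624-34002873. Neither holds CAGATG, an E-box letter string to which the RREB1 cofactor NEUROD1 binds, on either strand.
Ripk1 start 1: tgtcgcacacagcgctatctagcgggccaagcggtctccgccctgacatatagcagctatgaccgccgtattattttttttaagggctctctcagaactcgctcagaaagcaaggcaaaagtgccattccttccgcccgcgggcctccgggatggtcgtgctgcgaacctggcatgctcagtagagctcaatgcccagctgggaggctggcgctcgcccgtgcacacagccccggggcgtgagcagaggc
Ripk1 start 2: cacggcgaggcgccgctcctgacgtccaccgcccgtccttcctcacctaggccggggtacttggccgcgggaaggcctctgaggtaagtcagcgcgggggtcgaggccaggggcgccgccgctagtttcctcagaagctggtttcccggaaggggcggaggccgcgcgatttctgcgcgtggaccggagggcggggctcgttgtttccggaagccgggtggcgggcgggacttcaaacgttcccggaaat
Rnf144b (plus strand) also has 2 starts, from chr13:47122470-47122719 and chr13:47193753-47194002, and each window of 250 bases holds CAGATG once (capitals).
Rnf144b start 1: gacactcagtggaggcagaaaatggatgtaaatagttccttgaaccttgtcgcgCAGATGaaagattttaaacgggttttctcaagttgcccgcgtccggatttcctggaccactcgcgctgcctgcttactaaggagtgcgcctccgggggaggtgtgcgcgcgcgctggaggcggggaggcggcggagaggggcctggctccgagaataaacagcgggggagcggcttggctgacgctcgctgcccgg
Rnf144b start 2: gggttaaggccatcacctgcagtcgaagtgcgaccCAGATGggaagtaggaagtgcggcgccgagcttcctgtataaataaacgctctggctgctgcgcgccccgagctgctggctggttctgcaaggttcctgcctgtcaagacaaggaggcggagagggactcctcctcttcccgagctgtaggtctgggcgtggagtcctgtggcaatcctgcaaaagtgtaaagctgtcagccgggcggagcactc
In windows of 250 bases before to 50 after a start, CAGATG on either strand was present in 3 of 12 promoters of the members called below (25%, in Rnf144b and Smim13), in 12 of 90 promoters of tested members that were not called (13.3%) and in 5635 of 32851 promoters of all genes (17.2%). These counts describe letters and say nothing of binding.

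Genotypes were compared over all 17621 genes with enough counts, with the library series as a term in edgeR's quasi-likelihood fit, and a gene was called when its Benjamini-Hochberg adjusted p was under 0.05. Of the 104 members, 99 were tested. A330102I10Rik, Serpinb1a, 1110046J04Rik, Ly86 and Gm8513 had too few counts. In nm3888-/- Purkinje cells 4 members were higher (Ripk1, Nol7, Bmp6 and Hsp25-ps1) and 8 were lower (A730081D07Rik, Rnf144b, Slc22a23, Gmpr, Smim13, Wrnip1, A530084C06Rik and Gmds). These 12 are 12.1% of the tested members, where 8.54% of all tested genes were called (2.58% higher and 5.95% lower). The median log2 fold change was 0.02 in the members and 0.03 over all tested genes, and the median size of the change regardless of sign was 0.24 in the members and 0.22 over all tested genes. In this bulk readout, fewer cells of a type and less RNA per cell cannot be told apart.

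**Figure D1:**
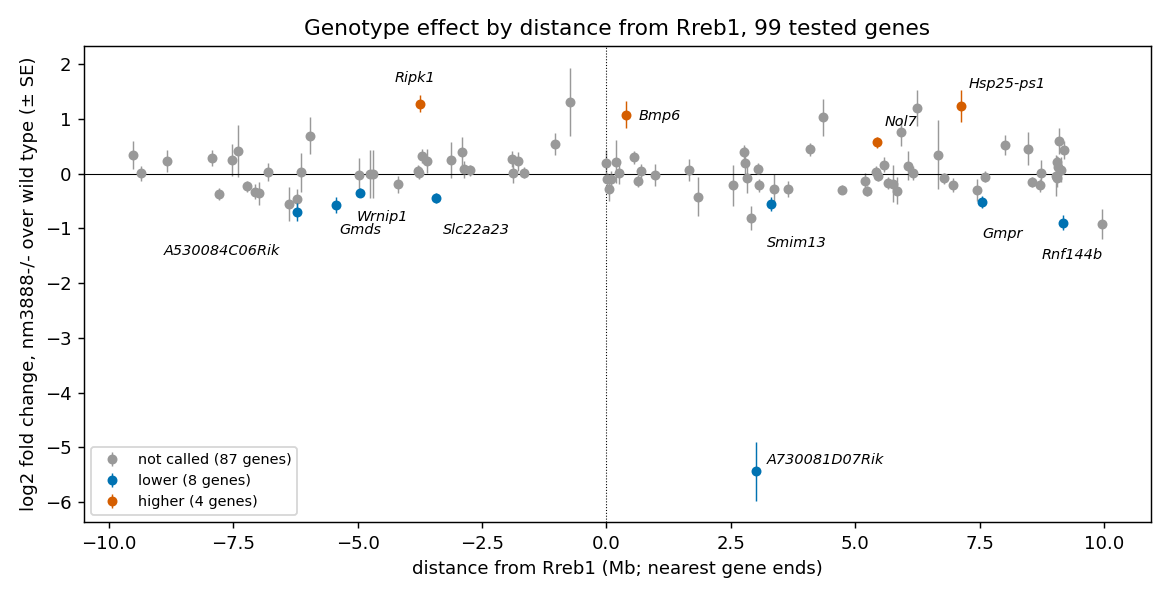
Log2 fold change (nm3888-/- over wild type, with its SE) of the 99 tested genes against their distance from Rreb1 in Mb, at the ends of the genes that face each other. The 4 higher and 8 lower genes lie on both sides of Rreb1 among genes that were not called, and A730081D07Rik, at -5.44, is far below the rest.

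Called members were spread over the window. Within 2 Mb of Rreb1, where Fars2 was left out, 1 of 19 tested members was called (5.26%). Between 2 and 5 Mb it was 5 of 29 (17.2%), and between 5 and 10 Mb 6 of 51 (11.8%). Toward lower coordinates 5 of 38 were called and toward higher coordinates 7 of 60. The first and the last called member are 15.7 Mb apart. Farther out on chromosome 13, 25 of 160 tested genes at 10 to 20 Mb were called (15.6%) and 37 of 439 beyond 20 Mb (8.43%). How far the donor segment reaches was not read from these counts, so genes at 10 to 20 Mb are not known to be unlinked. The genes at 10 to 20 Mb include replication-type histone genes, of which 7 of 17 were called, all higher, while 18 of 143 other genes there were called (12.6%). The rest of chromosome 13 outside the window had 62 of 599 genes called (10.4%). Over all tested protein-coding genes the share was 10.1%, and among the protein-coding members it was 10 of 74 (13.5%). No test was made of these shares, since the region was chosen with results of these data known.

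**Figure D2:**
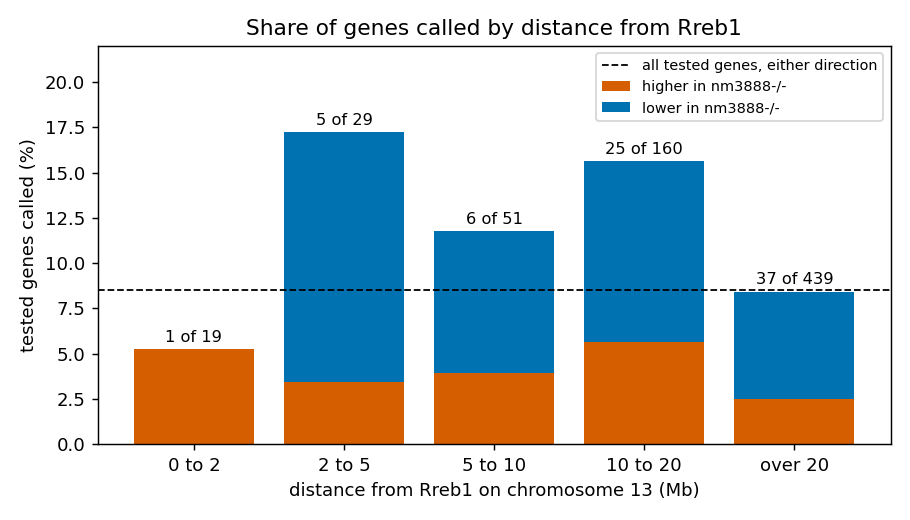
Percent of tested genes called in each range of distance from Rreb1 on chromosome 13 (Mb), split into genes higher and lower in nm3888-/- Purkinje cells, with the share over all 17621 tested genes as a dashed line (8.54%). Within 2 Mb, with Fars2 left out, 1 of 19 genes was called, too few genes to place this share above or below the line. At 10 to 20 Mb, outside the window, the share stood at 15.6%.

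The largest change belonged to A730081D07Rik, an antisense RNA 3.00 Mb from Rreb1. It had 0, 1, 5 and 0 counts in the nm3888-/- libraries, against 49, 40 and 171 counts in the wild-type libraries. As CPM (counts scaled to a common library total after TMM normalization), this is 0, 0.0298, 0.0842 and 0 CPM in nm3888-/- cells, against 1.94, 1.58 and 1.67 CPM in wild-type cells. The RNA was all but absent in the mutant in both series, and no value of one genotype came near the other. Its log2 fold change was -5.44 (SE 0.53, adjusted p = 0.000537), the 2nd-largest fall of the 17621 tested genes. Pooled over libraries, the nm3888-/- level was 2.25% of the wild-type level (exact 95% confidence interval 0.817 to 4.96%, counting error only), which is 44.5-fold lower. By series it was 1.08% in the first (interval 0.0270 to 6.17%) and 2.87% in the second (0.919 to 6.82%).

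A730081D07Rik overlaps its neighbors on the opposite strand by 4479 bases of Gcnt2 and 129 bases of Pak1ip1, and counting was strand-specific. Gcnt2, an enzyme that branches the sugar chains of the I blood group antigen, had 1.21, 1.64, 0.876 and 0.885 CPM in nm3888-/- cells, against 2.13, 2.89 and 1.56 CPM in wild-type cells. Both mutants lay below the wild type within each series, at a log2 fold change of -0.81 (SE 0.21), but the adjusted p of 0.051 missed the threshold. Gcnt2 was called by DESeq2 and in 3 edgeR alternatives. Pak1ip1, a nucleolar protein of ribosome assembly, had 20.3 to 38.7 CPM in nm3888-/- cells and 20.9 to 35.9 CPM in wild-type cells, and its log2 fold change was 0.09 (SE 0.10, adjusted p = 0.62). The antisense RNA and Pak1ip1, which start head to head with an overlap of 129 bases, therefore gave log2 fold changes of -5.44 and 0.09. Tmem14c, next along the chromosome, stood at -0.21 (SE 0.12, adjusted p = 0.33).

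Ripk1 was the most clearly raised member. It encodes a kinase that relays signals of the TNF receptor toward NF-kB, apoptosis or necroptosis, and it lies 3.74 Mb from Rreb1. Its CPM was 15.7, 18.7, 10.8 and 14.9 in nm3888-/- cells, against 7.23, 7.79 and 4.84 in wild-type cells. Every nm3888-/- library was above every wild-type library, and the log2 fold change was 1.28 (SE 0.15, adjusted p = 0.00151). Its neighbors on both sides were not called. Nqo2, a quinone reductase, gave 0.05 (SE 0.12, adjusted p = 0.83), and Serpinb6a, a protease inhibitor whose gene overlaps Ripk1 by 432 bases on the opposite strand, gave 0.02 (SE 0.11, adjusted p = 0.94). Bphl, a serine hydrolase whose gene starts 449 bases beyond the end of Ripk1 on the same strand, gave 0.33 (SE 0.12, adjusted p = 0.14), with 73.9 and 65.2 CPM in the first-series mutants against 49.6 and 50.4 CPM in their wild types, and 79.6 and 99.2 CPM in the second-series mutants against 82.5 CPM in the wild type.

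Ripk1 and Bmp6 are also expressed outside neurons, so markers of other cell types are given beside them. The 12 microglial markers summed to 9.27 to 24.1 CPM in nm3888-/- cells and 8.11 to 18.0 CPM in wild-type cells, with 0 of the 9 tested ones called by edgeR, 5 at an unadjusted p under 0.05 and 1 called by DESeq2. The 12 endothelial and pericyte markers summed to 57.3 to 83.4 CPM in nm3888-/- cells and 36.8 to 58.8 CPM in wild-type cells, with 0 of 12 called by edgeR, 3 at an unadjusted p under 0.05 and 2 called by DESeq2. Glial markers were higher in part. In the Bergmann glia and astrocyte list 3 of 14 were called higher and 1 lower (9750 to 14240 CPM in nm3888-/- cells, 8185 to 13360 CPM in wild-type cells). Of these 14, 7 had an unadjusted p under 0.05 in edgeR and 5 were called by DESeq2. In the oligodendrocyte list 2 of 12 were called higher (689.5 to 1238 CPM in nm3888-/- cells, 506.9 to 738.2 CPM in wild-type cells). Of these 12, 9 had an unadjusted p under 0.05 in edgeR and 5 were called by DESeq2. Granule cell markers did not overlap in their sums, at 712.4 to 1395 CPM in nm3888-/- cells and 532.8 to 645.7 CPM in wild-type cells, with 0 of 12 called by edgeR, 7 at an unadjusted p under 0.05 and 1 called by DESeq2. Blood cell markers summed to 106.2 to 313.1 CPM in nm3888-/- cells and 87.2 to 112.5 CPM in wild-type cells (0 of 5 called by edgeR, 3 at an unadjusted p under 0.05, 2 by DESeq2), choroid plexus markers to 81.5 to 373 CPM and 109.3 to 132.9 CPM in the same order (0 of 6, 3 and 1), and molecular layer interneuron markers to 109.1 to 167.8 CPM and 102.2 to 218.3 CPM (0 of 10, 6 and 1). The median log2 fold change was above 0 in each of these lists, at 0.28 for endothelial, 0.42 for interneuron, 0.51 for granule cell, 0.55 for oligodendrocyte, 0.63 for Bergmann glia, 0.64 for microglial, 0.65 for choroid plexus and 0.79 for blood cell markers. For Purkinje cell markers it was 0.08. No marker of these lists was at 0 in all libraries, and their part in the changes of Ripk1 and Bmp6 was not tested. The 16 Purkinje cell markers summed to 38710 to 58400 CPM in nm3888-/- cells and 42470 to 51680 CPM in wild-type cells, with 0 called by edgeR or DESeq2 and 3 at an unadjusted p under 0.05.

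**Figure D3:**
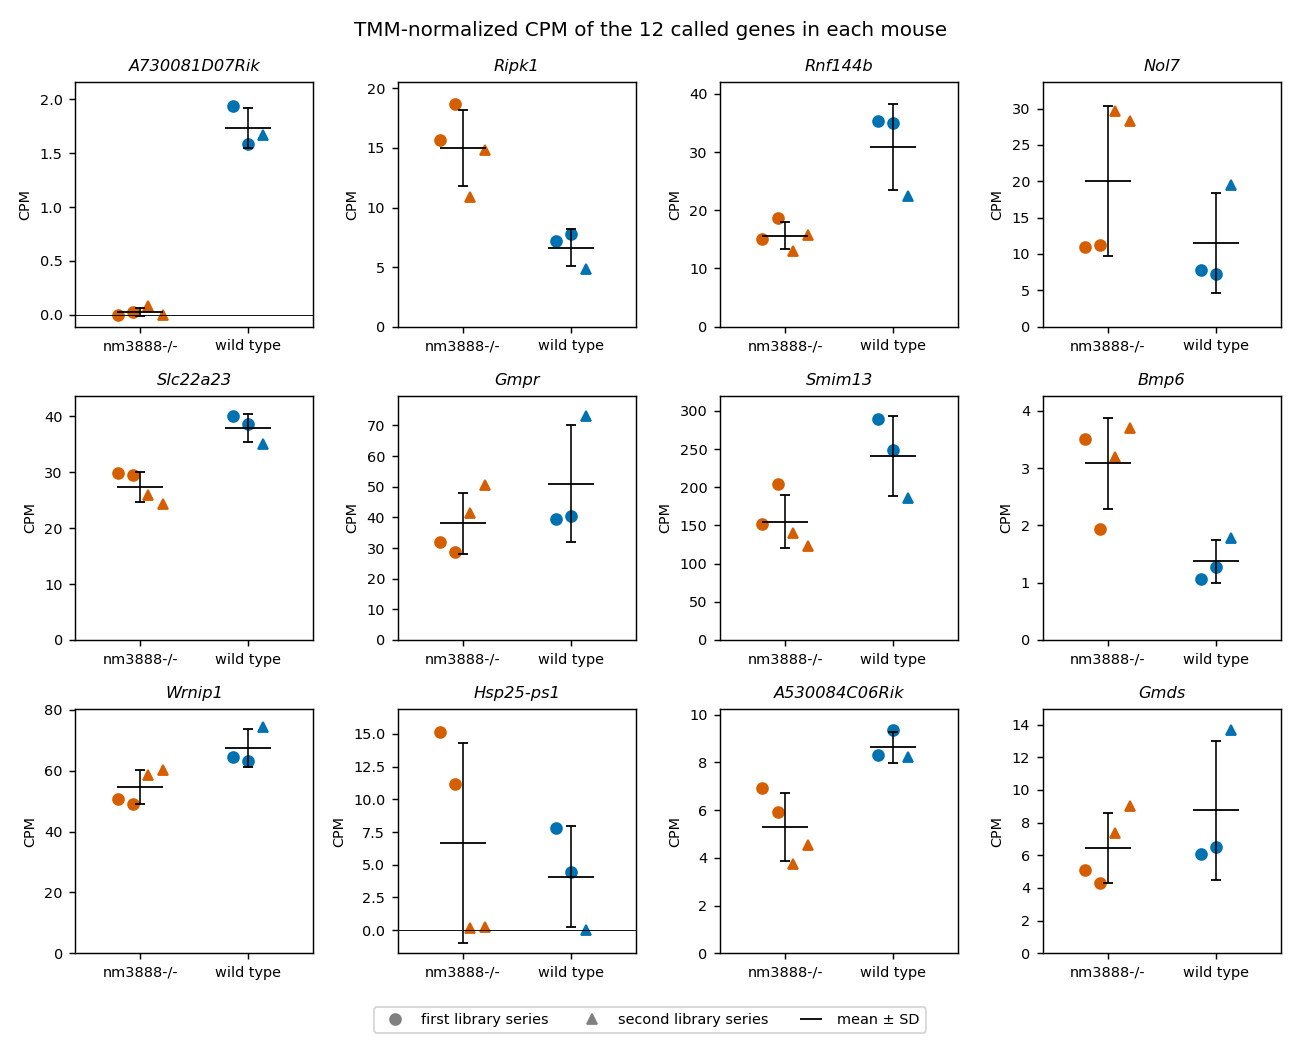
CPM of the 12 called genes in each mouse (circles, first series; triangles, second series), nm3888-/- at the left and wild type at the right of each panel, with the mean and SD of each genotype. In every panel both mutants lie beyond the wild type of their own series, and A730081D07Rik is at or near 0 in all 4 mutants.

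Ripk1 belongs to the list of secreted signals, receptors and signaling, of which 3 of 6 tested members were called (Ripk1, Bmp6 and the transporter Slc22a23). Over all tested genes 8.54% were called, which is the share to set beside the counts of this and the later lists. These lists hold few genes and were chosen with earlier results of these data known, so their counts are a description. Bmp6, a secreted BMP ligand, is the called member nearest to Rreb1, at 0.393 Mb. Its level was low, at 3.51, 1.94, 3.20 and 3.70 CPM in nm3888-/- cells, against 1.07, 1.27 and 1.78 CPM in wild-type cells, with no overlap (log2 fold change 1.08, SE 0.25, adjusted p = 0.032). Slc22a23, an orphan member of the solute carrier 22 transporter family, fell to 29.8, 29.4, 25.9 and 24.2 CPM in nm3888-/- cells, against 40.0, 38.6 and 35.1 CPM in wild-type cells (log2 fold change -0.44, SE 0.09, adjusted p = 0.017). The genotypes did not overlap. Nrn1 (neuritin, a secreted neurite growth factor), Edn1 (endothelin-1) and Dusp22 (a protein phosphatase) were not called, at log2 fold changes of 0.54, 1.04 and -0.33 and adjusted p of 0.14, 0.10 and 0.18.

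Of the 6 tested ubiquitin and proteasome genes, only Rnf144b was called. It encodes an E3 ubiquitin ligase of the RBR type and lies near the far end of the window, 9.17 Mb from Rreb1. It was at 15.1, 18.6, 13 and 15.7 CPM in nm3888-/- cells, against 35.4, 35.1 and 22.4 CPM in wild-type cells. Each mutant lay below all wild types, and the log2 fold change was -0.89 (SE 0.14, adjusted p = 0.0051). Dek, a chromatin protein whose gene lies 16454 bases away, was not called (log2 fold change 0.08, SE 0.22, adjusted p = 0.87). Gm48581, which overlaps Rnf144b by 2652 bases on the opposite strand, was not called either and went the other way (0.44, SE 0.17, adjusted p = 0.15). Of the same list, Ranbp9, a subunit of the CTLH ligase complex, and Nhlrc1 (malin), an E3 ligase linked to Lafora disease in humans, gave -0.05 (SE 0.08, adjusted p = 0.77) and 0.22 (SE 0.11, adjusted p = 0.25).

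Gmpr and Gmds fell, out of 12 tested members of the list of mitochondrial and metabolic genes, whose median log2 fold change was 0.04. Gmpr, the GMP reductase that returns GMP to IMP, had 31.8, 28.6, 41.5 and 50.5 CPM in nm3888-/- cells, against 39.4, 40.5 and 73 CPM in wild-type cells. The ranges overlapped between the series but not within either, and the log2 fold change was -0.51 (SE 0.11, adjusted p = 0.023). Gmds makes the first step from GDP-mannose to GDP-fucose. It was at 5.08, 4.29, 7.38 and 9.03 CPM in nm3888-/- cells, against 6.09, 6.53 and 13.6 CPM in wild-type cells (log2 fold change -0.57, SE 0.15, adjusted p = 0.049), which was the called value closest to the threshold. Lyrm4, a partner of the iron-sulfur cluster machinery, gave 0.02 (SE 0.10, adjusted p = 0.92).

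In RNA and protein synthesis, 1 of 11 tested members rose. Nol7, a nucleolar protein, had 11, 11.3, 29.7 and 28.3 CPM in nm3888-/- cells, against 7.74, 7.24 and 19.5 CPM in wild-type cells. The series differed more than the genotypes did, but within each series both mutants were above the wild type, and the log2 fold change was 0.57 (SE 0.10, adjusted p = 0.0099). Its neighbors Sirt5, a mitochondrial deacylase, and Ranbp9, which overlaps it by 4423 bases on the opposite strand, gave 0.04 and -0.05 and were not called. The other members of this list included Prpf4b, a splicing kinase, at 0.08 (SE 0.16, adjusted p = 0.79).

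The list headed trafficking, cytoskeleton and adhesion also holds genes not placed there by such a role, among them Smim13, Gfod1 and Tmem14c. Of its 13 tested members 1 was called, and the median log2 fold change was -0.21. Neither value describes trafficking and cytoskeleton genes alone. Smim13, a small membrane protein, fell to 152, 204, 140 and 123 CPM in nm3888-/- cells, against 289, 249 and 186 CPM in wild-type cells (log2 fold change -0.55, SE 0.12, adjusted p = 0.028). Gfod1, the member with the most reads in this list, was at 564, 637, 398 and 405 CPM in nm3888-/- cells, against 678, 759 and 527 CPM in wild-type cells. Its log2 fold change was -0.31 (SE 0.09) and its adjusted p of 0.078 missed the threshold. Cap2, a regulator of actin, gave -0.15 (SE 0.08, adjusted p = 0.33).

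In DNA maintenance 1 of 4 tested members was called. Wrnip1, an ATPase that binds the WRN helicase and protects stalled replication forks, had 50.8, 49.0, 58.7 and 60.3 CPM in nm3888-/- cells, against 64.5, 63.1 and 74.5 CPM in wild-type cells. The genotypes did not overlap, and the fall was small (log2 fold change -0.34, SE 0.08, adjusted p = 0.034). A530084C06Rik, a gene of the minus strand that overlaps the transcription factor gene Foxq1 by 3200 bases, had 6.92, 5.93, 3.72 and 4.54 CPM in nm3888-/- cells, against 8.30, 9.38 and 8.23 CPM in wild-type cells (log2 fold change -0.69, SE 0.17, adjusted p = 0.038). Foxq1 itself had 14, 10.5, 7.48 and 6.31 CPM in nm3888-/- cells, against 12.6, 14.6 and 12.5 CPM in wild-type cells. It was not called (log2 fold change -0.46, SE 0.18, adjusted p = 0.17).

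None of the 12 tested transcription and chromatin genes was called by edgeR, although 4 had an unadjusted p under 0.05 and 2 did not overlap between the genotypes. Hivep1 was called by DESeq2 and in 5 edgeR alternatives. Hivep1, a zinc finger factor, had 27.9, 27.8, 32.0 and 24.5 CPM in nm3888-/- cells, against 21.0, 21.2 and 19.7 CPM in wild-type cells, with a log2 fold change of 0.45 (SE 0.12) and an adjusted p of 0.051. Tfap2a, which encodes the factor AP-2 alpha, had 10.6 to 12.1 CPM in nm3888-/- cells and 7.28 to 9.81 CPM in wild-type cells, at 0.40 (SE 0.13, adjusted p = 0.097). Atxn1, the gene of spinocerebellar ataxia type 1 in humans, and Jarid2, a partner of the Polycomb complex PRC2, gave -0.05 (SE 0.09, adjusted p = 0.78) and -0.09 (SE 0.10, adjusted p = 0.65). In the immune and blood list none of the 5 tested members was called by edgeR or DESeq2 or had an unadjusted p under 0.05. Cd83, a surface protein of dendritic cells, gave -0.31 (SE 0.25, adjusted p = 0.50).

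The mapped interval of the mutation holds Rreb1 and the genes beside it, 8 in all, of which Fars2 was left out by the rule of the window. None of its 6 tested members was called by edgeR or DESeq2 or had an unadjusted p under 0.05. Rreb1 had 20.2, 19.1, 23.7 and 10.8 CPM in nm3888-/- cells, against 17.7, 17.4 and 14.4 CPM in wild-type cells. The libraries labelled nm3888-/- 1 to 3 lay above every wild-type library and nm3888-/- 4 lay below them all, and the log2 fold change was 0.20 (SE 0.23, adjusted p = 0.64, 95% confidence interval -0.33 to 0.74). These counts sum all transcripts of the gene, cannot single out Rreb1 V7, and showed no fall in the libraries labelled nm3888-/-. The paper, by contrast, reports that a Northern blot for total Rreb1 lost its main transcript in mutant brain. It also found no Rreb1 there by in situ hybridization with a probe for every transcript. In mutant cerebellum the paper reports a strong fall by RT-qPCR with primers for Rreb1 V7, and loss of Rreb1 V7 by Northern blot. The other long Rreb1 transcripts that it detected there by RT-PCR were at levels comparable to wild type. Those readouts used other material than the ribosome-bound RNA counted here. Why these counts showed no fall was not tested.

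Ssr1, a subunit of the translocon-associated protein complex, was at 135 to 176 CPM in nm3888-/- cells and 142 to 180 CPM in wild-type cells (log2 fold change -0.09, SE 0.11, adjusted p = 0.66). Riok1, a kinase of ribosome maturation, gave -0.09 (SE 0.14, adjusted p = 0.73), and Cage1, a cancer antigen gene, -0.28 (SE 0.21, adjusted p = 0.47). Dsp, the desmosome protein desmoplakin, gave 0.22 with an SE of 0.39 (adjusted p = 0.77). F13a1, a subunit of coagulation factor XIII, was near the limit of detection, at 0.105 to 0.994 CPM in nm3888-/- cells and 0.0396 to 0.316 CPM in wild-type cells, so its log2 fold change of 1.32 had an SE of 0.62 (adjusted p = 0.25). Ly86, a partner of the immune receptor RP105, had 0.0894 to 0.376 CPM in nm3888-/- cells and 0.0791 to 0.119 CPM in wild-type cells and was not tested. Just beyond the interval, Snrnp48, a protein of the minor spliceosome, stood at 0.02 (SE 0.21, adjusted p = 0.96).

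**Figure D4:**
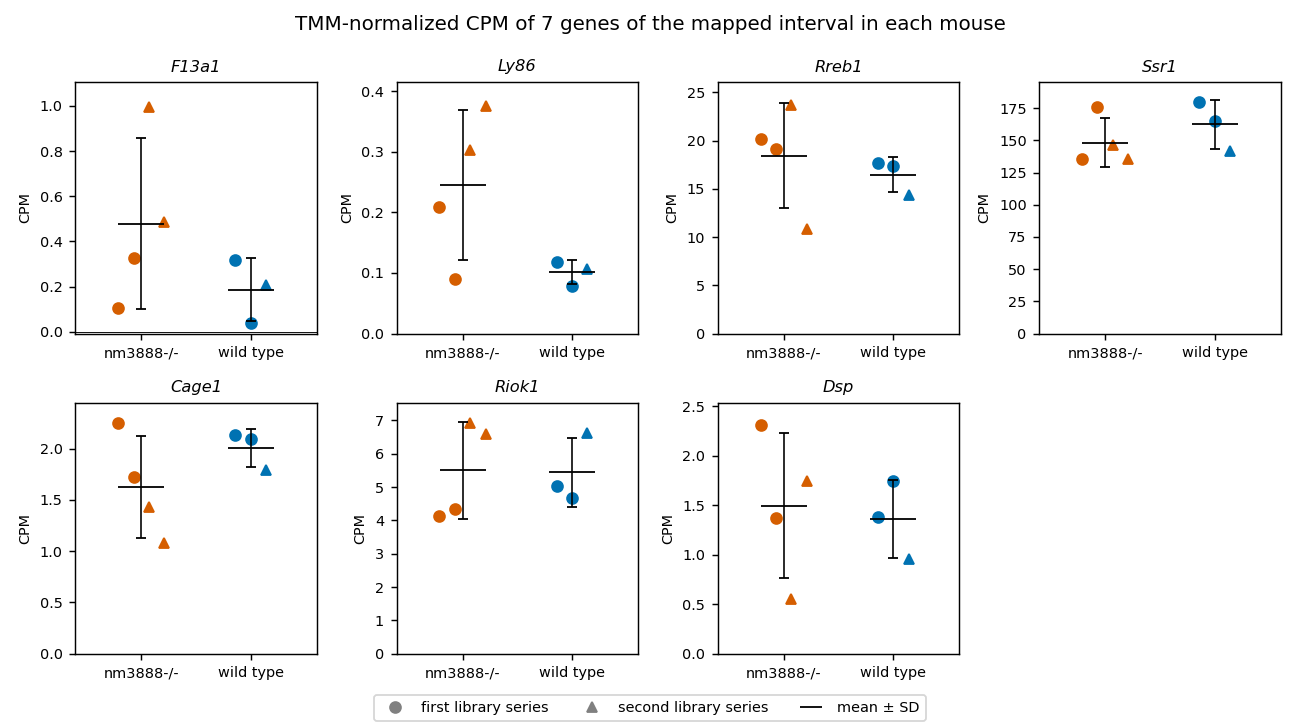
CPM of the 7 measured genes of the mapped interval in each mouse (circles, first series; triangles, second series), nm3888-/- at the left and wild type at the right, with the mean and SD of each genotype. The genotypes overlap in every panel, and Rreb1 in the 4 mutants spans 10.8 to 23.7 CPM.

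Hsp25-ps1 is a processed pseudogene of Hspb1, the gene of a small heat shock protein on another chromosome, and reads of the 2 cannot be fully told apart. Hsp25-ps1 had 15.1 and 11.1 CPM in the first-series mutants, against 7.78 and 4.43 CPM in their wild types, but 0.168 and 0.266 CPM in the second-series mutants, against 0.0488 CPM in the wild type. Its log2 fold change was 1.24 (SE 0.29, adjusted p = 0.036). Hspb1 itself was called higher (log2 fold change 1.33, SE 0.29, adjusted p = 0.023), with 15.4, 9.36, 14.7 and 27.5 CPM in nm3888-/- cells against 6.40, 3.92 and 7.76 CPM in wild-type cells. Of the other 6 pseudogenes in the window, 5 had a first-series mean over 10 times that of the second. The exception was Gm8513, at 0.198 CPM in the first series and 0.188 CPM in the second. Gm5790, for example, averaged 60.7 CPM in the first series and 0.106 CPM in the second, and pseudogenes of the whole genome made up 8.84 to 10.2% of first-series counts but 0.199 to 0.272% of second-series counts. Without pseudogenes, 11 of 93 tested members were called (11.8%).

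Levels differed widely between members. Per kilobase of exon, the median was 1.95 CPM in nm3888-/- cells and 2.04 CPM in wild-type cells. The most abundant per kilobase in wild-type cells were Uqcrfs1, the Rieske subunit of respiratory complex III (197 CPM per kilobase in nm3888-/- cells, 238 in wild-type cells), and Gfod1 (69.5 in nm3888-/- cells, 90.8 in wild-type cells). In nm3888-/- cells the lincRNA Gm5083 exceeded Gfod1 (74.5 CPM per kilobase, 72.9 in wild-type cells). Uqcrfs1 was not called (log2 fold change -0.23, SE 0.10, adjusted p = 0.22).

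Of the 99 tested members, 14 did not overlap between the genotypes (14.1%), 6 with all mutants above and 8 with all mutants below. Over all tested genes the share was the same, 14.1% (5.16% above and 8.92% below). Called genes made up 7 of the 14. The others were Hivep1, Tfap2a, Dusp22, Phactr1 and the lincRNAs 5033430I15Rik, A330076C08Rik and G630093K05Rik. Phactr1, a regulator of protein phosphatase 1 and actin, had 35.4, 34.8, 38.8 and 38.8 CPM in nm3888-/- cells, against 42.7, 41.7 and 49.1 CPM in wild-type cells (log2 fold change -0.29, SE 0.08, adjusted p = 0.067). None of the 13 tested lincRNAs was called by edgeR or DESeq2, and 4 had an unadjusted p under 0.05. The largest values among them were 1.20 for A330076C08Rik (SE 0.33, adjusted p = 0.062) and -0.92 for G630093K05Rik (SE 0.27, adjusted p = 0.074). In all, 18 members had an unadjusted p under 0.05 without being called. The number of all tested genes at that unadjusted p is not given here, so these numbers of members are a description.

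The effect of genotype was then compared between the series. In 34 of the 99 tested members (34.3%) both mutants lay on the same side of the wild type within each series, against 30.6% of all tested genes. All 12 called members were among them. The calls were made on these same libraries with series as a term, so this last count is no separate support for them. By the interaction of series and genotype in edgeR, none of the 99 members differed between the series after adjustment (smallest adjusted p 0.370). Of all 17621 genes, 14 did. At an unadjusted p under 0.05 were 7 of the 99 members and 1017 of the 17621 genes. A730081D07Rik had log2 fold changes of -6.34 in the first series and -5.06 in the second, Ripk1 had 1.19 and 1.41, and Rnf144b had -1.06 and -0.64.

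**Figure D5:**
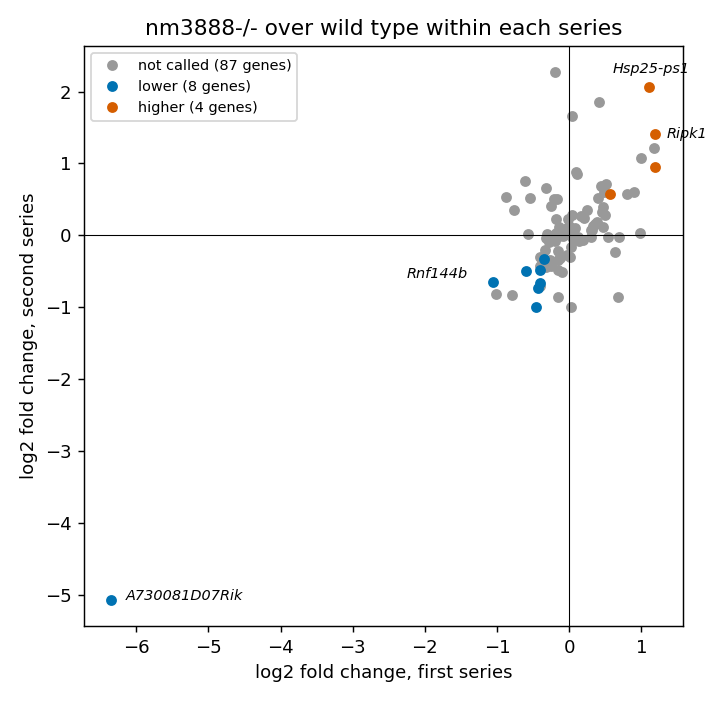
Log2 fold change (nm3888-/- over wild type) of the 99 tested genes within the first series (2 mutants, 2 wild types) and within the second series (2 mutants, 1 wild type). Each of the 12 called genes, called on these same libraries, lies on the same side of 0 in both series, and A730081D07Rik is at -6.34 and -5.06.

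How many members were called depended on the fit. A fit that replaced the series by a block on replicate number gave 2 higher and 2 lower members (Ripk1, Hsp25-ps1, A730081D07Rik and Rnf144b), where 4.61% of all genes were called. In the first series alone, which holds females only, Ripk1, A730081D07Rik and Rnf144b were called (3.98% of all genes), and in the second series alone Ripk1 and A730081D07Rik (6.11%). The second series has 1 wild-type library, so the spread in that fit comes from its 2 mutants alone and the wild type is assumed to vary alike. Leaving out wild type 1, 2 or 3 left 5, 3 and 3 of the 12 called, with 4.84, 4.08 and 3.35% of all genes called. Leaving out nm3888-/- 1, 2, 3 or 4 left 9, 6, 9 and 6 of the 12, with 7.24, 5.26, 8.28 and 6.83% of all genes called. With no term for the series edgeR called no member (1.75% of all genes, 17 members at an unadjusted p under 0.05), nor did it call any when sex took its place (0.579%, 11 members). For these 17 and 11 members the matching number of all genes is not given. The other edgeR settings called 8.37% of all genes (DESeq2 size factors), 6.71% (no filter), 11.1% (10 counts in every library) and 11.9% (protein-coding genes alone), and DESeq2 called 11.3%, with 10 to 12 of the 12 members called in each. Over the 17 alternatives Ripk1 was called in 15 and Rnf144b in 14, and A730081D07Rik in 13 of the 15 that tested it. Without the fit of the second series alone these counts are 14 of 16, 14 of 16 and 12 of 14. Of the others, Nol7 was called in 10 and each of the rest in 5 to 8.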

How the data were processed

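RiboTag RNA-seq libraries of Purkinje cells from 4 nm3888-/- and 3 wild-type mice were analyzed as raw counts per gene. The authors deduplicated and trimmed reads with fastp, aligned them to mm10 and deposited whole-number counts made with featureCounts 2.0.1 (paired, reverse-stranded, GENCODE annotation). The file headers name a Bowtie2 folder for the first series and a STAR folder for the second, where the methods name Bowtie2 alone. Batch was a covariate in the study's methods, but which library was in which batch is not given in the sources used here, so the series in the library names was used.

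Under R 4.3.3, counts were normalized by TMM and fitted in edgeR 4.0.16 (which uses limma 3.58.1) with series and genotype as terms, on 17621 genes passing filterByExpr by genotype. Standard errors come from the F statistic. CPM use TMM-scaled totals, and no pseudocount was added. The script was tested on simulated counts, where it recovered 12 of 50 genes changed 1.5-fold and 41 of 50 changed 2-fold. All 50 genes changed 4-fold and all 50 changed 8-fold were recovered, and 11 of 164 calls were false. The changed genes were drawn from those averaging over 50 counts per library, so recovery at lower counts was not measured. DESeq2 1.42.0 was an alternative. Alternatives of normalization, filter, batch term, libraries, tool and window are given in the closing section. Symbols and biotypes are from GENCODE M21 (55141 of 55401 genes matched).

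Same-numbered replicates deviated together (correlations 0.90, 0.95 and 0.95), but so did other replicates of the same series (0.92 to 0.96), and within the first series the correlation was -0.03. The labels do not say that a number marks a litter or day.

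The members, the role lists and the alternatives were chosen with earlier results of these data known. Genes were named by rule: the mapped interval, all called members, the 5 nearest tested members to Rreb1 on either side, and the 2 members of each list with the highest mean CPM (35 genes). Other genes named were picked after their values were seen. Labels do not state that mice came from separate litters, so p-values measure the spread between these mice.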

Additional observations from a re-analysis of the deposited data

Results flagged for a closer look

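Only the 35 genes named by rule were screened for a mutant library that stood apart, and the other members were not. In 4 of these 35, 1 of the 4 nm3888-/- libraries stood far from the other 3 by Dixon's 95% criterion. Chance meets this criterion in about 1 group of 20. Rpp40, a subunit of RNase P, was highest in mutant 1 at 3.93 CPM, against 3.07 to 3.14 CPM in the other mutants and 2.81 to 3.95 CPM in wild-type cells. Nrn1 was lowest in mutant 1 at 10.2 CPM, against 18.0 to 19.2 CPM in the other mutants and 10.7 to 11.5 CPM in wild-type cells. Without mutant 1, Nrn1 was called higher. Jarid2 was lowest in mutant 1 at 63.9 CPM, against 75.8 to 76.2 CPM in the other mutants and 74.6 to 81.1 CPM in wild-type cells. Cd83 was highest in mutant 3 at 3.52 CPM, against 1.78 to 2.06 CPM in the other mutants and 2.65 to 2.97 CPM in wild-type cells. None of the 4 was called with all libraries. Mutant 1 has the fewest counts of all libraries (18023017).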

How the results depend on the processing

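Members called numbered 4 higher and 8 lower. With DESeq2 size factors in edgeR (5 and 6), no filter, 10 counts in every library, protein-coding genes alone (4 and 8 each) or DESeq2 (5 and 9) the counts stayed within 1.5 times. DESeq2 called all 12. Gcnt2 and Hivep1 were called by DESeq2 and in 3 and 5 edgeR alternatives, in part where other members were lost. A730081D07Rik could not be tested with 10 counts in every library or among protein-coding genes, by construction. With no batch term, and with sex in place of the series, 0 were higher and 0 lower. The replicate block gave 2 and 2, the first series alone 1 and 2, and the second series alone, with 1 wild-type library, 1 and 1. Leaving out each library in turn gave 1 to 6 higher and 2 to 7 lower. The only value of a called member that changed sign was Nol7, at -0.049 when sex replaced the series (adjusted p = 0.98). The log2 fold change of Rreb1 was -0.03 without nm3888-/- 3, and it was called under none of 17 alternatives (-0.03 to 0.36, adjusted p 0.19 to 1.00). The share called was 12.8% within 5 Mb, 14.3% within 20 Mb and 11.8% without pseudogenes. The interaction with series gave 0 members with DESeq2 size factors and with DESeq2, both chosen after seeing the data. At an unadjusted p under 0.05 were 7 members and 999 of 17621 genes with those size factors. With DESeq2 it was 3 members and 801 of 14745 genes. The causes were not tested. Members with few counts, such as F13a1 and Ly86, cannot show small changes at this depth.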
